A study of Mus musculus with 18 samples.

Results

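The 9 genes described here are those by which blood vessel endothelium starts, restrains and dissolves clots: Vwf, F8 and F3 on the side of clotting, Thbd, Procr and Tfpi on the side that restrains it, and Plat, Plau and Plaur in plasminogen activation. They were chosen by name and function, not by a measured value, and make up 9 of the 55401 lines of the table of endothelial libraries and 9 of the 22612 lines of the table of EO771 libraries. The series holds 18 libraries of mouse RNA, 3 in each of 6 groups. The groups BEC normal and BEC tumour are blood endothelial cells sorted from the mammary fat pad and from EO771 tumours growing there. HEC normal and HEC tumour are high endothelial cells of inguinal lymph nodes, without and with tumour in the mouse, and the labels name lymph node metastases as the tissue of the latter. The mice were wild-type C57BL/6, 5 to 6 weeks old when obtained, and the cells were sorted as negative for CD45 and high for CD31, with PNAd marking HECs. The groups EO771 vehicle and EO771 12-HETE are cultures of 1 mouse breast cancer line, EO771, given 2% DMSO in saline or 100 nM of the lipid 12-HETE for 48 h. The study describes these data as coming from independent experiments, while the labels do not tie single libraries to mice or cultures.

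Endothelium normally keeps blood fluid. Thrombomodulin (Thbd) binds thrombin, and the endothelial protein C receptor (Procr) presents protein C to that complex, which turns it into an anticoagulant protease. Tissue factor pathway inhibitor (Tfpi) blocks the complex that tissue factor (F3) forms to start clotting. Von Willebrand factor (Vwf) is stored in Weibel-Palade bodies, tethers platelets and carries factor VIII (F8). The tissue-type and urokinase-type activators (Plat and Plau) convert plasminogen to plasmin, which dissolves fibrin, and the urokinase receptor (Plaur) holds urokinase at the cell surface.

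Library totals ran from 56.4 to 79.4 M units for endothelial cells and from 17.3 to 18.6 M counts for EO771 cells. The endothelial values pile up in steps of 3.73 units (median of 12 libraries), so 1 unit was not 1 fragment, and 11.2 units, 3 steps, were taken as the most that a true 0 allows. All 12 endothelial libraries held the endothelial transcripts Pecam1, at 40818 to 41360.5 normalised counts in BEC tumour and more elsewhere, and Cdh5, at 43552 to 44464 in HEC tumour and more elsewhere. Of 9 general endothelial markers, 3 (Kdr, Cldn5 and Esam) were called lower in BEC tumour against BEC normal, where the median log2 fold change of the list was -0.59 and its sum 159815 to 162105 against 231885 to 242868. Chst4, a sulphotransferase of high endothelium, was at 0 in all BEC libraries and high in 5 of the 6 HEC libraries, but was listed at 4.07 in HEC normal replicate 2. HEC tumour replicate 3 was low for Fut7, another gene of high endothelium, and BEC tumour replicate 3 stood apart in Krt8, an epithelial keratin, at 35.2 to 2235 over the 3 BEC tumour libraries. Results that turn on these 3 libraries are given with and without them. The summed level of 9 myeloid markers was 101878 to 136433 in BEC tumour, against 7966 to 9317 in BEC normal, 33192 to 34737 in HEC normal and 23073 to 24424 in HEC tumour. The HEC normal sum was mostly Cd68, the 1 myeloid marker called higher there against BEC normal, whereas Csf1r, Cd14 and Fcgr1 were called lower and the median of the list was -0.99. Fewer cells of a type and less RNA per cell cannot be told apart in bulk libraries such as these.

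Per kilobase of exon, Procr stood highest of the 9 genes in all 4 endothelial groups and Vwf or F8 lowest. The Procr level was 18606 normalised counts per kb in BEC normal and 55389 in HEC tumour. Thbd came next in 3 of the 4 groups, and in BEC normal Plau, at 8207 per kb, stood above Thbd, at 7119.7. Vwf, the usual marker of blood endothelium, had 64.1 normalised counts per kb in BEC normal and 11.3 in HEC normal, a level per kb above 33.6% and 16.6% of the genes tested. Levels per kb were divided by all annotated exon bases of a gene, 16064 for Vwf, the longest of the 9. Where a transcript is shorter than that, its level per kb is understated.

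**Figure D1:**
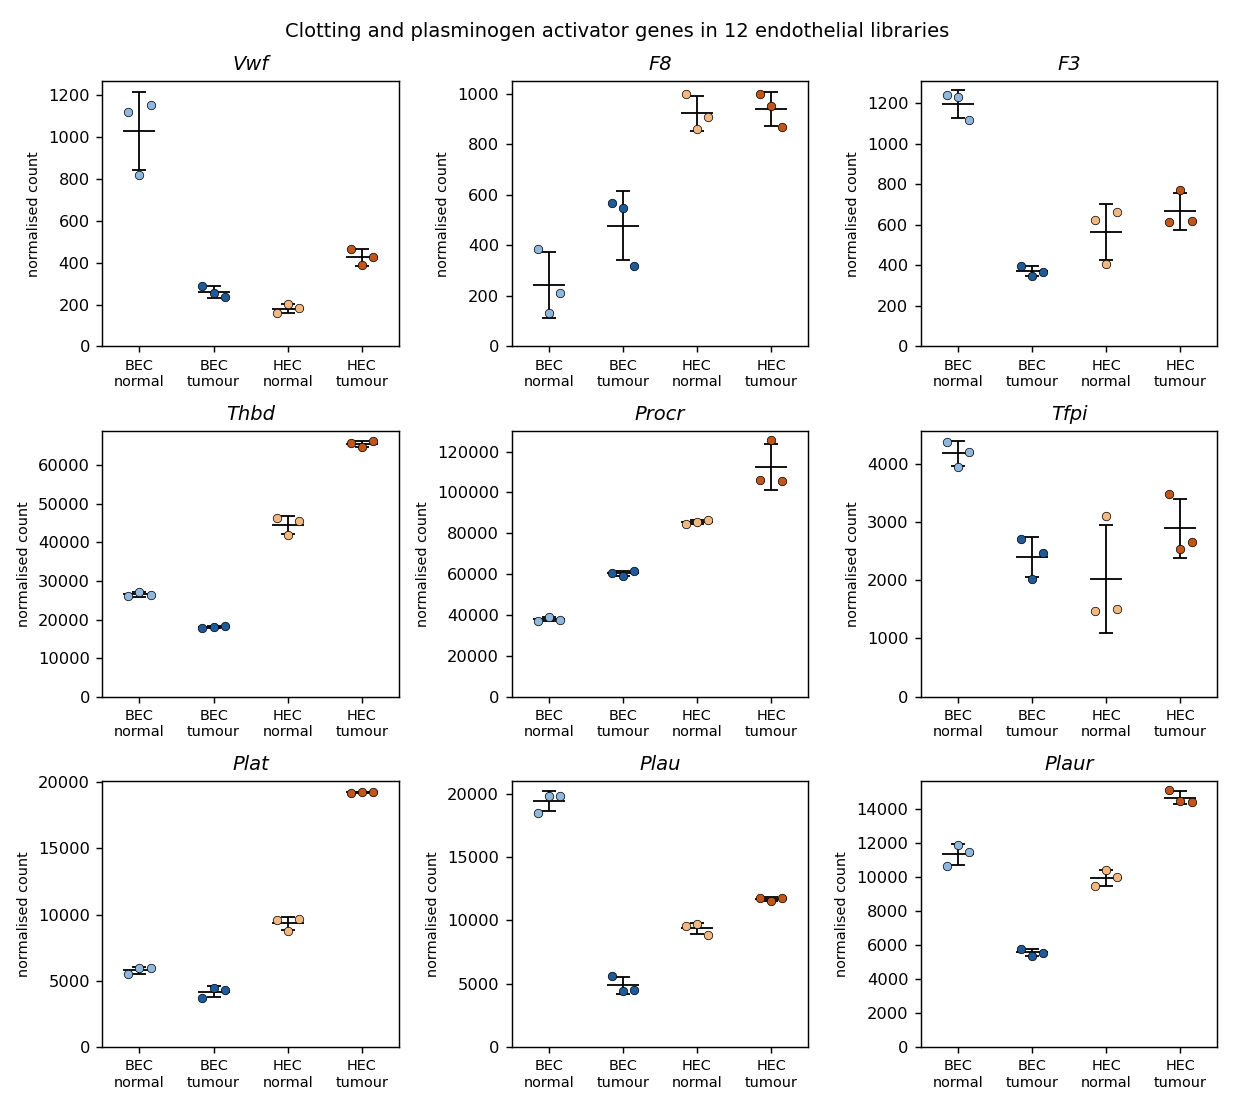
DESeq2 normalised counts (y axis, from 0) of the 9 genes in each of the 12 endothelial libraries, by group (x axis). Points are libraries, and horizontal lines and bars are the mean and SD of 3 libraries. Vwf, F3, Tfpi and Plau stand highest in BEC normal, and Thbd, Procr, Plat and Plaur in HEC tumour.

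Groups were compared with DESeq2's Wald test. Calls needed a Benjamini-Hochberg adjusted p below 0.05 together with more than a 2-fold difference, that is a log2 fold change beyond 1 or -1. In HEC normal against BEC normal, 6 of the 9 genes were called, 2 higher and 4 lower in HECs, where 32.2% of all 18511 genes tested were called, 17.1% higher and 15.1% lower. In HEC tumour against BEC tumour, 4 were called, all higher in HECs, where 11.2% of all genes were called higher and 21.9% in either direction. In BEC tumour against BEC normal, 4 were called, all lower with tumour, where 10.8% of all genes were called lower and 23.3% in either direction. In HEC tumour against HEC normal, 2 were called, both higher, where 4.58% of all genes were called higher, 3.21% lower and 7.8% in either direction. The adjusted p alone was passed by 9, 8, 9 and 6 of the members in these comparisons in the order given, and by 63.3%, 54.3%, 53.7% and 35.4% of all genes. Every library of 1 group lay above or below every library of the other for 9, 8, 8 and 6 members, and for 66.7%, 62.7%, 59.5% and 48.8% of all genes. The median log2 fold change of the 9 genes was -0.80 in the BEC comparison and 0.51 in the HEC comparison, beside 0.0083 and 0.019 over all genes. The difference between those changes was tested as an interaction, the HEC change minus the BEC change. It was called for 7 of the 9 genes, each more positive in HECs, where 11.2% of all genes were called in that direction and 23.3% in either, and the median over the 9 was 1.52 beside -0.0019 over all genes. Lymph node, fat pad and tumour were each digested with their own enzymes, for 1 h, 30 min and 2 h, so cell type, organ and digestion cannot be told apart between HECs and BECs, nor tumour and digestion between the BEC groups. Immediate early genes, which handling of tissue can induce, differed in the same comparisons. The sum of 10 was 78349 to 83277 in HEC normal and 93784 to 96269 in HEC tumour against 30824 to 34188 in BEC normal and 34484 to 36843 in BEC tumour. In HECs against BECs, 5 were called higher and 2 lower between the normal groups and 6 higher between the tumour groups, and with tumour in BECs 2 were called higher and 5 lower. Their part in the members' differences was not tested.

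**Figure D2:**
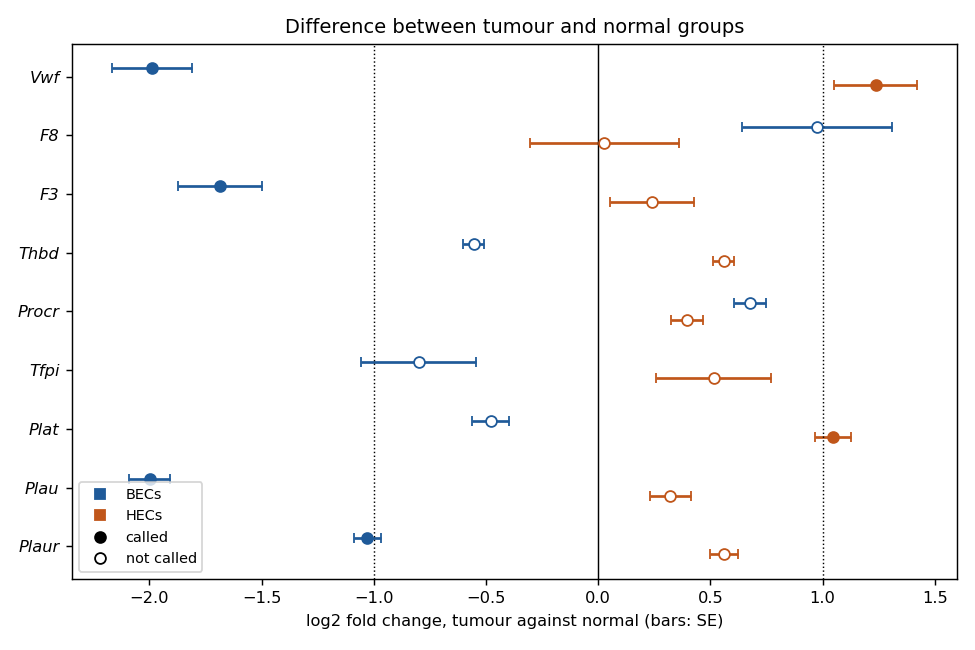
Log2 fold change of tumour against normal groups (x axis) for the 9 genes (y axis) in BECs (blue) and HECs (orange), with bars of 1 SE. Filled points were called and dotted lines mark a log2 fold change of 1 in size. Vwf lies at -1.99 in BECs and 1.24 in HECs, and Plau at -2.00 and 0.32.

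Vwf (chr6:125546774-125686679, plus strand, GRCm38, 56 exon blocks, gene ENSMUSG00000001930) had 1117, 817 and 1153 normalised counts in the 3 BEC normal libraries and 288, 255 and 236 in BEC tumour. It had 159, 201 and 183 in HEC normal and 466, 387 and 425 in HEC tumour. No neighbours in this order of groups (BEC normal, HEC tumour, BEC tumour, HEC normal) overlapped. With tumour, Vwf fell in BECs by 3.96-fold (log2 -1.99 ± 0.18, adjusted p = 1.07e-27) and rose in HECs by 2.36-fold (log2 1.24 ± 0.19, adjusted p = 3.87e-10). The interaction of 3.22 ± 0.26 was the widest of the 9 genes. HEC normal lay 5.69-fold under BEC normal (log2 -2.51 ± 0.18), whereas HEC tumour lay above BEC tumour by 0.71 ± 0.18, past the adjusted p but not the fold.

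F8 (chrX:75172715-75382615, minus strand, 27 exon blocks, gene ENSMUSG00000031196), whose protein is a cofactor in the generation of factor Xa, ran the other way. It had 385, 131 and 213 normalised counts in BEC normal and 569, 548 and 320.0 in BEC tumour. Its HEC levels were 1000.0, 862 and 908 without tumour and 999, 954 and 868 with it. All 6 HEC libraries lay above all 6 BEC libraries, while the 2 BEC groups overlapped each other and so did the 2 HEC groups. F8 was called higher in HECs between the normal groups (log2 1.92 ± 0.34, adjusted p = 3.38e-08). In the tumour groups the difference of 0.97 ± 0.33 just missed the fold, and it was called with total scaling (1.02) and when BEC tumour replicate 1, BEC tumour replicate 2 or HEC tumour replicate 3 was left out (1.11, 1.08 and 1.03). The change with tumour in BECs, 0.97 ± 0.34, stood as close to the threshold, and was called in 9 of 16 alternatives, which include the adjusted p alone. Among them were TMM scaling (1.01) and the fits without BEC normal replicate 1 (1.47) and without BEC tumour replicate 3 (1.20). Its interaction was -0.95 ± 0.47 (adjusted p = 0.0872, 95% interval -1.87 to -0.022), the most negative of the 9, and was called without BEC normal replicate 1 (-1.44) or BEC tumour replicate 3 (-1.17). Vwf, the carrier of factor VIII, and F8 had opposite orders in normal tissue.

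F3 (chr3:121723537-121735048, plus strand, 7 exon blocks, gene ENSMUSG00000028128), which encodes tissue factor, had 1242, 1229.7 and 1116 normalised counts in BEC normal and 397, 350.2 and 368 in BEC tumour. HEC normal had 625, 409 and 663 and HEC tumour 613, 774 and 619, and these HEC groups overlapped. The BEC normal libraries lay above all others and the BEC tumour libraries below all others. F3 fell with tumour in BECs by 3.22-fold (log2 -1.69 ± 0.19, adjusted p = 2.26e-18), and the interaction was 1.93 ± 0.27. In HECs the difference with tumour was 0.24 ± 0.19 (95% interval -0.13 to 0.61). It was called lower in HECs between the normal groups at -1.08 ± 0.19, but the value was -0.89, under the fold, without HEC normal replicate 2.

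Among the genes that restrain clotting, Thbd (chr2:148404466-148408188, minus strand, gene ENSMUSG00000074743, a gene of 1 exon) had 25988, 27229 and 26303 normalised counts in BEC normal and 17844, 18079 and 18203 in BEC tumour. It had 46408, 41837 and 45441 in HEC normal and 65886, 64796 and 66313 in HEC tumour. The 4 groups were wholly separate, in the order HEC tumour, HEC normal, BEC normal and BEC tumour. Thbd was called 3.64-fold higher in HECs between the tumour groups (log2 1.86 ± 0.047), and lay 1.68-fold higher in HECs between the normal groups (log2 0.75 ± 0.047), under the fold threshold. With tumour it was lower in BECs (log2 -0.55 ± 0.048) and higher in HECs (log2 0.56 ± 0.047), past the adjusted p and under the fold in both, and the interaction of 1.11 ± 0.067 was called (adjusted p = 2.75e-60).

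Procr (chr2:155751117-155755471, plus strand, 3 exon blocks, gene ENSMUSG00000027611) had 36837, 38774 and 37757 normalised counts in BEC normal and 60389, 59097 and 61682 in BEC tumour. It had 84379, 85518 and 86689 in HEC normal and 106055, 125599 and 105834 in HEC tumour. These groups were also wholly separate, and Procr was the only gene of the 9 besides F8 whose mean was higher with tumour in both BECs and HECs. The log2 changes with tumour were 0.68 ± 0.07 in BECs and 0.40 ± 0.07 in HECs, both past the adjusted p and under the fold, and the interaction was -0.28 ± 0.098 (adjusted p = 0.0111). Procr was called higher in HECs between the normal groups (1.18 ± 0.07, adjusted p = 6.48e-63) and lay 0.90 ± 0.07 higher in the tumour groups. The ratio of Procr to Thbd per kb was 2.61 ± 0.0167 (SD, n = 3) for BEC normal and 6.14 ± 0.124 for BEC tumour, the highest, with HEC normal at 3.53 ± 0.209 and HEC tumour at 3.14 ± 0.355.

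Tfpi (chr2:84432855-84476775, minus strand, 12 exon blocks, gene ENSMUSG00000027082) varied widely between the HEC normal libraries. It had 4378, 3949 and 4209 normalised counts in BEC normal and 2715, 2025 and 2462 in BEC tumour. HEC normal had 1472, 3095 and 1501 and HEC tumour 3474, 2538 and 2654. BEC normal lay above all others and the other 3 groups overlapped their neighbours. Tfpi was called lower in HECs between the normal groups (-1.05 ± 0.26, adjusted p = 1.03e-04), but the value was -0.86 without HEC normal replicate 1, -0.87 without replicate 3 and -1.49 without replicate 2, the library that lacks Chst4. With tumour it was lower in BECs (log2 -0.80 ± 0.26, adjusted p = 0.00423), and in HECs the difference was 0.51 ± 0.26 (adjusted p = 0.108), or 1.01 and called without the 3 libraries that stand apart. The interaction was called at 1.31 ± 0.36, and was 1.82 without those libraries.

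**Figure D3:**
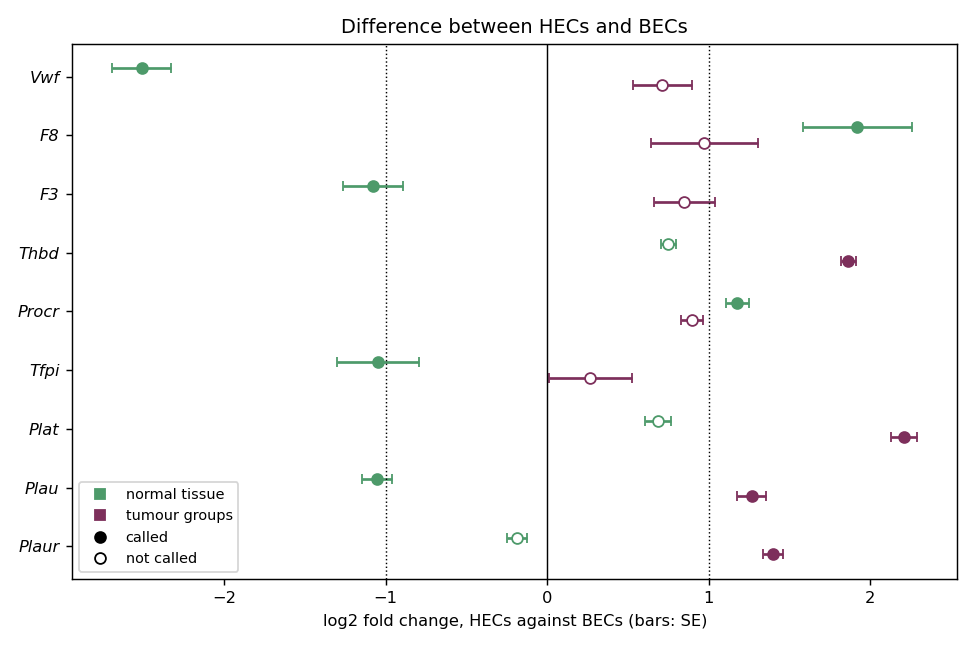
Log2 fold change of HECs against BECs (x axis) for the 9 genes (y axis), between the normal groups (green) and between the tumour groups (purple), with bars of 1 SE. Filled points were called and dotted lines mark a log2 fold change of 1 in size. All 9 values lie above 0 between the tumour groups, while Vwf, F3, Tfpi, Plau and Plaur lie below 0 between the normal groups.

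Of the plasminogen activators, Plat (chr8:22757727-22782844, plus strand, 13 exon blocks, gene ENSMUSG00000031538) had 5489, 5979 and 5923 normalised counts in BEC normal and 3684, 4472 and 4312 in BEC tumour. It had 9616, 8736 and 9623 in HEC normal and 19177, 19288 and 19248 in HEC tumour, again 4 separate groups in the same order as Thbd. Plat was 4.63-fold higher in HEC tumour than in BEC tumour (log2 2.21 ± 0.081, adjusted p = 8.04e-162), the widest difference of the 9 genes between those groups. It rose with tumour in HECs by 2.06-fold (log2 1.04 ± 0.08), and stood just under the fold, at 1.00, without HEC normal replicate 2. In BECs it was lower with tumour (log2 -0.48 ± 0.081, under the fold), and the interaction was 1.52 ± 0.11.

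Plau (chr14:20836660-20843385, plus strand, 11 exon blocks, gene ENSMUSG00000021822) had 18522, 19881 and 19873 normalised counts in BEC normal and 5623, 4449.8 and 4517 in BEC tumour. It had 9522, 9702 and 8869.8 in HEC normal and 11777, 11508 and 11791 in HEC tumour, and no groups overlapped. Plau fell with tumour in BECs by 3.99-fold (log2 -2.00 ± 0.091, adjusted p = 3.94e-104) and was higher with tumour in HECs by 0.32 ± 0.091, and the interaction was 2.32 ± 0.13 (adjusted p = 3.54e-70). HECs were called lower than BECs in normal tissue (-1.05 ± 0.091) and higher in the tumour groups (1.27 ± 0.091). Plaur (chr7:24462484-24475968, plus strand, 6 exon blocks, gene ENSMUSG00000046223) had 10680.2, 11909.9 and 11493 normalised counts in BEC normal and 5775, 5372 and 5559 in BEC tumour. It had 9471, 10406 and 10044 in HEC normal and 15173, 14514 and 14435 in HEC tumour, likewise without overlap. The receptor fell with tumour in BECs at -1.03 ± 0.062, barely past the fold. That call was lost in 5 of 16 alternatives, among them TMM scaling at -0.99. The HEC change was 0.56 ± 0.062 and the interaction 1.59 ± 0.087 (adjusted p = 5.47e-72). The HEC tumour level was 2.64-fold that of BEC tumour.

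The myeloid markers moved with the BEC comparison: all 9 were called higher with tumour, and Lyz2 had 38199 to 61605 normalised counts against 191 to 436. In the interaction 8 of the 9 were called lower, while 4 of the 9 general endothelial markers were called higher, beside 12.1% and 11.2% of all genes. With tumour in BECs 6 of the 7 fibroblast and pericyte markers tested were called lower and 1, Dcn, higher, with summed levels of 2608 to 4786 against 15604 to 16221. Between the HEC groups 1 myeloid marker was called higher and 1 lower, and 3 fibroblast and pericyte markers were called lower. The part of these other cell types in the members' differences was not tested. Without BEC tumour replicate 3, HEC normal replicate 2 and HEC tumour replicate 3 together, 5, 4, 2 and 5 members were called in the normal, tumour, HEC and BEC comparisons in that order, and 7 in the interaction. Between the HEC groups this count holds Vwf and Tfpi, since Plat, at 0.99, was no longer called. With all libraries kept, 32.2%, 21.9%, 7.8% and 23.3% of all genes were called in the normal, tumour, HEC and BEC comparisons. In the interaction the share was 23.3%. Shares of all genes without the 3 libraries are not reported here.

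**Figure D4:**
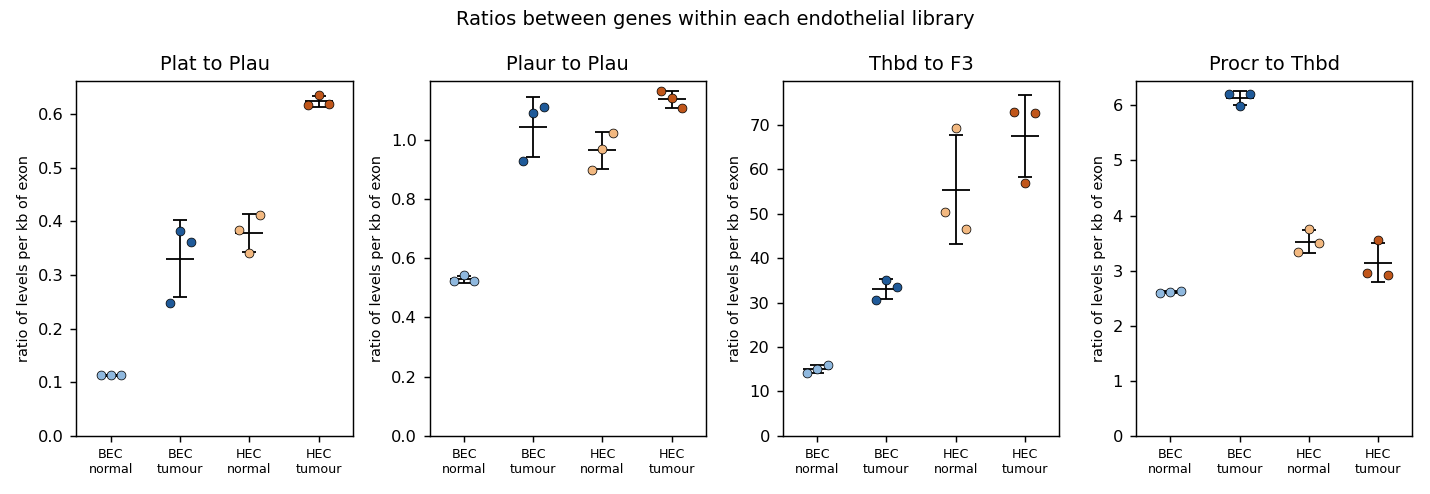
Ratios (y axis, from 0) between the levels per kb of exon of gene pairs within each endothelial library, by group (x axis). Points are libraries, and lines and bars are the mean and SD of 3. The Plat to Plau ratio runs from 0.112 to 0.114 in BEC normal and from 0.618 to 0.636 in HEC tumour.

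Ratios within a library do not depend on how libraries are scaled. They do depend on the exon lengths used. The Plat to Plau ratio per kb was 0.113 ± 0.000841 (SD, n = 3) for BEC normal, 0.331 ± 0.0717 for BEC tumour, 0.379 ± 0.0352 for HEC normal and 0.624 ± 0.0100 for HEC tumour. Per kb, Plau stood above Plat in all 12 libraries, and least so in HEC tumour. That order rests on exon lengths of 6241 bases for Plat and 2367 for Plau. Before division by length, HEC tumour had more Plat than Plau, with means of 19238 and 11692 normalised counts. Which transcript was more numerous was not tested. The Plaur to Plau ratio was 0.529 ± 0.0113 for BEC normal and close to 1 elsewhere, at 1.04 ± 0.101 for BEC tumour, 0.965 ± 0.0625 for HEC normal and 1.14 ± 0.0292 for HEC tumour. The Thbd to F3 ratio was 15.1 ± 0.894 for BEC normal, 33.0 ± 2.31 for BEC tumour, 55.4 ± 12.2 for HEC normal and 67.5 ± 9.24 for HEC tumour, the HEC groups overlapping each other and neither overlapping a BEC group.

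Of the 10 other genes of fibrinolysis listed, 9 were tested. In HEC normal against BEC normal 1 was called higher and 2 lower, beside 17.1% and 15.1% of all genes. The 1 called higher was Plg, with a mean of 78.6 normalised counts in HEC normal and 0 in BEC normal. Hepatocyte transcripts, given below, stood higher in the same HEC libraries, and their part in this was not tested. The 2 called lower in HEC normal were inhibitors of plasminogen activators: Serpine2, encoding protease nexin 1, with 3439.6 to 3904 normalised counts in BEC normal and 0 to 26.5 in HEC normal, and Serpinb2, encoding PAI-2, with 1832 to 2399 and 8.11 to 28.7. Both were low in HEC tumour too, at 0 to 4.62 and 18.5 to 34.5. Serpinb2 fell with tumour in BECs (-2.61 ± 0.32). The median log2 fold change of the 9 was -0.31 between the normal groups.

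Of 10 other anticoagulant genes, 8 were tested. Between the normal groups 3 were called higher and 2 lower in HECs (median 0.69), beside 17.1% and 15.1% of all genes. The 3 called higher were Tfpi2 and, at low levels, Serpind1 and Proc. Their means were 26.0 and 17.5 normalised counts in HEC normal for Serpind1 and Proc, and 0 and 2.74 in BEC normal. Hepatocyte transcripts, given below, stood higher in the same HEC libraries, and their part in these calls was not tested. Tfpi2, a relative of Tfpi, had 49.1 ± 15.2 normalised counts (SD, n = 3) in BEC normal and 576 ± 5.71 in BEC tumour, and 827 ± 102 and 827 ± 134 in the HEC groups. It rose with tumour in BECs (3.54 ± 0.22), where Tfpi was lower. Hs3st1, the enzyme that makes the antithrombin-binding site of heparan sulphate, had 275 ± 47.7 in BEC normal and 15.9 ± 2.95 in BEC tumour. In HECs its order was reversed, at 16.1 ± 5.17 and 105 ± 49.7, with an interaction of 6.82 ± 0.64. Pros1, encoding protein S, the cofactor of activated protein C, was lower in HECs in both tissues (-1.48 ± 0.11 and -1.02 ± 0.11).

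Of 9 genes of thrombin receptors and platelet restraint, 8 were tested. With tumour in BECs 2 were called higher and 3 lower, beside 12.4% and 10.8% of all genes. The thrombin receptor family went both ways. F2rl1, a receptor of the family that other proteases open, rose from 77.8 ± 4.2 to 436 ± 56.5 normalised counts (2.49 ± 0.22), and F2rl2 had 0 to 10.6 in BEC normal, under the limit of 11.2 units, and 19.2 to 24.5 in BEC tumour. Those that fell in BECs were Ptgis, the prostacyclin synthase (931 ± 117 to 104 ± 22.1 normalised counts), the thrombin receptor F2rl3 (926 ± 104 to 124 ± 15.9) and Nt5e, which makes adenosine (249 ± 24.1 to 32 ± 6.94). Of 8 genes of the Weibel-Palade body, 7 were tested. Between the normal groups 3 were called higher and 2 lower in HECs, beside 17.1% and 15.1% of all genes. Angpt2, stored with Vwf, was 9.89-fold higher in HECs between the normal groups while Selp, also stored there, was 2.5-fold lower. Angpt2 rose with tumour in BECs by 1.59 ± 0.084 and Selp lay at -0.49 ± 0.041, under the fold. The interaction was called lower for 4 of the 7 and higher for 1, Selp, beside 12.1% and 11.2% of all genes. Of the 4 regulators listed, Klf2, a transcription factor known to drive Thbd, was called higher in HECs in both tissues (1.47 ± 0.082 and 1.67 ± 0.082), and Klf4 in the tumour groups (1.59 ± 0.061). Erg was called in neither tissue (0.99 ± 0.13 and -0.40 ± 0.13), and its interaction was called lower (-1.40 ± 0.19). Gata2 was called in neither tissue (-0.025 ± 0.18 and -0.40 ± 0.18). With tumour in HECs none of the 4 was called, with Klf2 at -0.18 ± 0.081 and Klf4 at 0.51 ± 0.060.

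Of 18 genes of clotting factors and of proteins that make or carry them, 13 were tested. Between the normal groups 6 were called higher and 2 lower in HECs, beside 17.1% and 15.1% of all genes. The 3 that led were Fgb, Fgg and Kng1, which the liver makes: Fgb had 128 to 164 normalised counts in HEC normal, 162 to 387 in HEC tumour and 0 in all 6 BEC libraries. Other transcripts of hepatocytes stood higher in the same libraries. Alb had 909 to 1576 in HEC normal and 1934 to 2505 in HEC tumour, and no more than 7.05 in any BEC library, and the sum of 8 hepatocyte transcripts, a list added after the values were seen, was 1753 to 2689 and 3235 to 4946 in the HEC groups against 22.4 to 102 in the BEC groups. Alb was also at 6690.5 to 8872 in the EO771 vehicle cultures. The source of these transcripts was not tested. In BECs, F7, F10 and F13a1 rose with tumour. F7, the partner of tissue factor, had 0 in all BEC normal libraries and 33.1 to 75.3 in BEC tumour, so it was at least 4.86-fold higher, and F13a1, which cross-links fibrin, had 8.13 to 15.9 and 85.4 to 281. The myeloid macrophage marker Adgre1 rose in the same libraries, with 0 to 4.06 in BEC normal and 1005 to 2515 in BEC tumour, and its part in this was not tested.

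The members did not move as 1 block across the 12 endothelial libraries. On log2 values, Thbd and Plat ran most alike (Pearson r = 0.98), then F3 and Plau (0.93), F8 and Procr (0.88) and Vwf and Tfpi (0.86), and Vwf and F8 were the most opposed (-0.64). These values come from 12 libraries in 4 groups, share library and group, and describe the group levels more than the spread within groups. Among all genes with a mean of at least 100 normalised counts, the 3 most like Vwf were Ptprb, Clec14a and Zfp512b (r = 0.99, 0.99 and 0.99). Ptprb and Clec14a encode endothelial surface proteins. Those most like Plau were Cd93, Snai1 and Nrarp (0.99, 0.98 and 0.98), and those most like Plaur were Pkn3, Epha2 and C530044C16Rik (0.98 each). Thbd ran closest to Cyp26b1, Gm4610 and Gadd45g (0.99 each), Plat to Spon2, Clasrp and Src (0.98 each), and Procr to Lmo1, Gsta1 and Rheb (0.99 each). F8 ran with Ccdc66 and Ccdc186 (0.99 each), F3 with Calcb, Mzt1 and Bivm (0.98, 0.97 and 0.97), and Tfpi, the least matched, with Gm43555, Syde1 and Pusl1 (0.94, 0.90 and 0.90).

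The 12-HETE comparison asked how the same genes stood in tumour cells given the lipid. EO771 cells held little Thbd, at 1.98, 1.91 and 3.07 normalised counts with vehicle and 0 in all 3 libraries with 12-HETE, and little Plau, at 0.99, 6.69 and 3.07 and 0, 0.986 and 1.97, and neither passed the minimum mean of 10. Of the 7 members tested, 1 was called, lower with 12-HETE, where 7.79% of all 11602 genes were called lower, 2.38% higher and 10.2% in either direction. That gene was Vwf, at 19.8, 66.9 and 43 with vehicle and 13.4, 7.88 and 10.8 with 12-HETE (-2.02 ± 0.55, adjusted p = 8.45e-04), a low level at which the vehicle libraries spread widely. Another 4 passed the adjusted p alone, as did 47% of all genes at any size. Procr had 3937, 5791 and 3686 and 2177, 2298 and 2259 (-0.99 ± 0.17, adjusted p = 6.99e-08), just under the fold, and was called at -1.08 without vehicle replicate 1 and at -1.12 without vehicle replicate 3 (and at -1.01 without 12-HETE replicate 2), but stood at -0.77 without vehicle replicate 2. F3 had 288, 283 and 337 and 184, 173 and 192 (-0.72 ± 0.15). Its inhibitor Tfpi stood higher instead, at 170.2, 106 and 217 with vehicle and 294, 322 and 292 with 12-HETE (0.88 ± 0.24, adjusted p = 0.00113), called at 1.13 without vehicle replicate 3. In all 3 genes no vehicle library overlapped a 12-HETE library, as held for 5 of the 7 members and 60.7% of all genes.

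**Figure D5:**
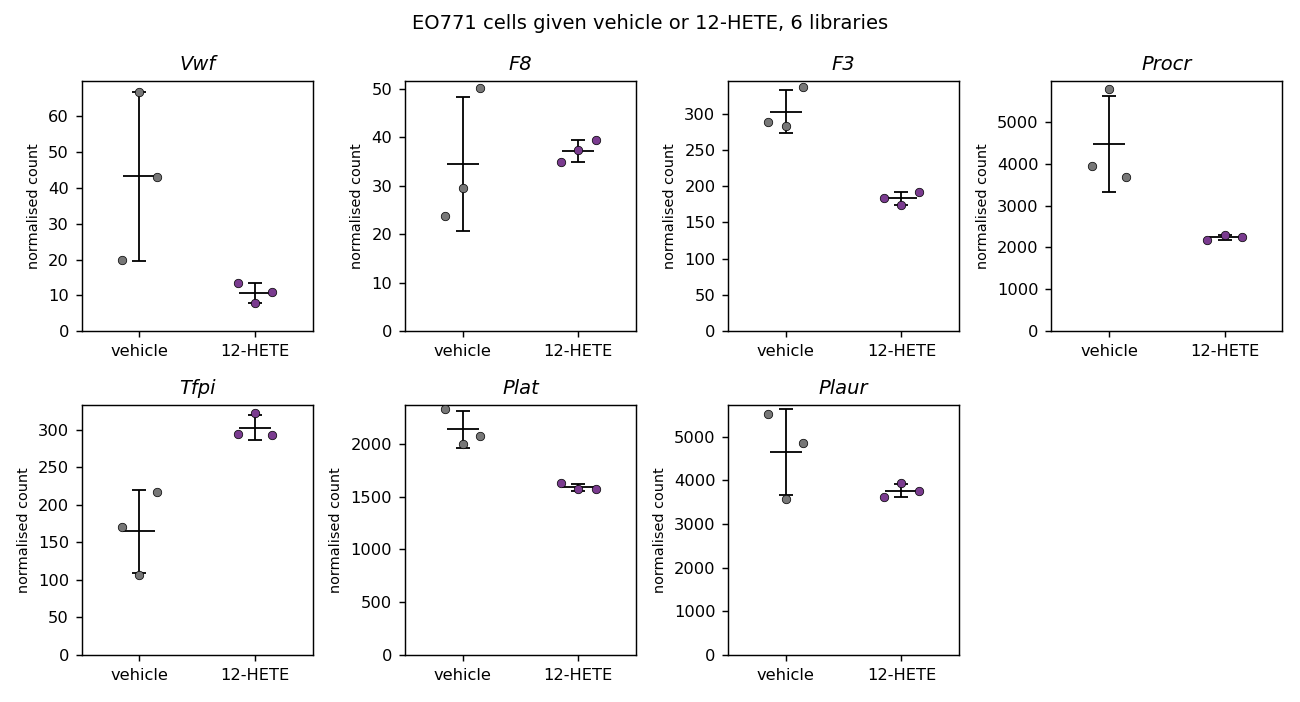
DESeq2 normalised counts (y axes, from 0) of the 7 tested members in 3 EO771 libraries given vehicle (grey) and 3 given 12-HETE (purple). Points are libraries, and lines and bars are the mean and SD of 3. Procr and F3 are lower with 12-HETE in all libraries, and Tfpi is higher.

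In plasminogen activation, Plat had 2330.4, 2001 and 2075 normalised counts with vehicle and 1627, 1569 and 1569.6 with 12-HETE (-0.43 ± 0.098), separate groups with a small difference. Plaur had 5518, 3579 and 4849 and 3626, 3931 and 3749 (-0.30 ± 0.16, 95% interval -0.61 to 0.0073), and its groups overlapped, as did those of F8 (23.7, 29.6 and 50.2 and 34.9, 37.5 and 39.4). Of the other genes of fibrinolysis, Lrp1, the receptor that clears activator complexes, rose (1.05 ± 0.078). In the anticoagulant list Pros1 rose (1.47 ± 0.20), and the other 4 tested were not called. All 8 immediate early genes tested, Fos, Fosb, Jun, Junb, Egr1, Atf3, Ier2 and Dusp1, were called lower with 12-HETE, and the summed level of the list was 33871 to 36416 with vehicle and 6430 to 6795 with 12-HETE. Whether this bears on the members was not tested.

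Fos and Jun proteins bind the AP-1 motif TGANTCA, so the promoters of the members were searched for it, and the matches are shown because transcripts of both families fell with 12-HETE. The RefSeq table of promoters (GRCm38.p6, 250 bases before to 50 after the start) held F3, Procr, Plaur, F8 and Tfpi, 5 of the 9 members, and Vwf, Thbd, Plat and Plau were not among its entries. The motif, which is its own reverse complement and so was read on both strands at once, was found in 3 of the 5, F3, Procr and Plaur, and in 8.97% of all 27025 gene symbols in the table. The windows below run 5′ to 3′ on the plus strand, which is the strand of each gene, with the motif in capitals. F3 holds it at 146 and 135 bases before the start, Procr at 154 and Plaur at 69. Distances are counted from the start in the RefSeq table. For Procr that start lies downstream of the gene start given above, so the motif is closer to the latter.
F3, chr3:121723381-121723407: gcggcgctgtTGAATCAcggttgagtc
F3, chr3:121723392-121723418: gaatcacggtTGAGTCAcccctttcgg
Procr, chr2:155751053-155751079: cccaccccccTGACTCAgcggcgacct
Plaur, chr7:24462404-24462430: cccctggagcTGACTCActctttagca
The F3 windows overlap. Of these genes, F3 and Procr passed the adjusted p with 12-HETE, both lower, and Plaur did not. Among members searched but without the motif, Tfpi passed it, higher with 12-HETE, and F8 did not. Vwf and Plat, whose promoters were not among the entries, passed it too, both lower. Whether the motif bears on these differences was not tested. A match of letters is a description of the sequence only.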

How the data were processed

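Per the labels and methods, RNA of sorted endothelial cells and of EO771 cells was sequenced, and the authors aligned reads to GRCm38 with STAR and counted them per gene with featureCounts. The deposited EO771 table holds raw counts by symbol. The deposited endothelial table was used as estimated counts, since its whole numbers rise in steps. The kit is named differently in labels and methods, the EO771 libraries were stranded, and whether counting used the strand is not given in the sources used here. No exon of a member overlaps another gene. Lines with a mean of at least 10 were tested, 18511 and 11602. DESeq2 1.42.0 (R 4.3.3), with all 12 endothelial libraries in 1 fit and 6 EO771 libraries in another, followed the test of the study and was checked on simulated data. Levels are normalised counts, per kb over exon lengths of GENCODE vM21, and errors are SD for levels and SE for fold changes, over 3 libraries. Intervals are Wald 95%. Alternatives were TMM and total scaling, no filter, edgeR 4.0.16's quasi-likelihood test, other thresholds, fewer libraries and a replicate block. For the endothelial table, values divided by the median step of 3.73 were another. Results of that setting are counted among all alternatives below and are not reported singly. Deviations of same-numbered EO771 libraries correlated at r = 0.11, 0.17 and 0.33, beside -0.23 to 0.054 for other pairs between the groups. The labels do not say that numbers pair cultures. The main test had no block, and the block changed no call of a member there. In the endothelial table same-numbered pairs had r = -0.028 to 0.13, beside -0.17 to 0.12 for others.

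The genes named outside the members were, for each list and comparison, up to 3 higher and 3 lower among called genes whose libraries do not overlap, and the 3 genes most like each member; some that the rule selects are not reported here. Hepatocyte transcripts, Adgre1, Alb, Lyz2, Pecam1, Cdh5, Chst4, Fut7, Krt8, Dcn, Cd68, Csf1r, Cd14, Fcgr1, Kdr, Cldn5, Esam and single genes set beside a member were named after their values were seen. The members and lists were chosen with earlier results of these data known.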

Additional observations from a re-analysis of the deposited data

Results flagged for a closer look

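For 7 of the 9 genes the difference with tumour was not the same in HECs as in BECs, by the interaction term of the DESeq2 fit (n = 3 libraries a group). Each was more positive in HECs, where 11.2% of all 18511 genes were called in that direction and 23.3% in either. Vwf had the widest gap, 3.22 on the log2 scale, with BECs lower and HECs higher with tumour in all libraries. Plau followed at 2.32 and F3 at 1.93, where the BEC fall carried most of the gap. Plaur was at 1.59, Plat at 1.52 and Thbd at 1.11, each lower with tumour in all BEC libraries and higher in all HEC libraries. Tfpi was at 1.31, with overlapping HEC libraries. Other markers moved in the same contrast: 8 of 9 myeloid markers were called lower and 4 of 9 general endothelial markers higher. Of all genes 12.1% were called lower and 11.2% higher. The part of these markers was not tested. The cell types came from different organs, and the tumour BECs were digested longer than those of the fat pad, which cannot be told apart from the cell type in this contrast.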

How the results depend on the processing

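Over all alternatives, 790 of 856 values of a member kept the direction and side of the threshold, 43 passed it and 20 lost it, and 3 reversed, all for F8 where it was not called: -0.025 and -0.018 between the HEC groups without HEC normal replicate 2 and HEC tumour replicate 1, where leaving out 1 library gave -0.025 to 0.085, and -0.10 in EO771 cells without vehicle replicate 1, where it gave -0.10 to 0.48. With the adjusted p alone, members called rose from 4 to 8 between the tumour groups, from 2 to 6 between the HEC groups, from 4 to 9 between the BEC groups and from 1 to 5 in EO771 cells. Of all genes 54.3%, 35.4%, 53.7% and 47% passed it in these comparisons. Shares of all genes for the other alternatives are not reported here. Tested against a log2 fold change of 1, they fell from 6 to 2 between the normal groups, from 2 to 0 between the HEC groups, from 4 to 3 between the BEC groups (without Plaur), from 7 to 5 in the interaction (without Thbd and Tfpi) and from 1 to 0 in EO771 cells, while the 4 between the tumour groups stayed 4. In EO771 cells they were 2 with TMM, total scaling and edgeR, the gene added being Procr. Leaving out 1 library gave 5 to 6 between the normal groups, 4 to 5 between the tumour groups, 1 to 2 between the HEC groups, 4 to 5 between the BEC groups, 7 to 8 in the interaction and 1 to 3 in EO771 cells. With the replicate block, members called were 6, 4, 2, 5, 7 and 1 in the normal, tumour, HEC, BEC, interaction and EO771 comparisons, the fifth in BECs being F8 (1.02). Counts without the 3 libraries that stand apart were chosen after seeing the data. Where a value moved, the cause was not tested. F8, Plaur, Plat, Procr and Tfpi each stand within reach of the fold threshold in some comparison, and 3 libraries a group limit what such calls can hold.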
